A study of Oryza sativa with 10 samples.

Results

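The regions described here carried an H3K27me3 peak in leaves of the rice variety TQ and no H3K27me3 peak in leaves of either other parent, GL or 93-11. To find them, the H3K27me3 peaks of all 5 genotypes were pooled, peaks that shared at least 1 bp were merged, and merged regions with a TQ peak and without a GL or 93-11 peak were kept. The rule returned 765 of 13647 merged regions, which is 5.61% of all regions and 9.16% of the 8350 regions with a TQ peak. They are called TQ-alone regions below. The members were chosen by the H3K27me3 peak calls of the 3 parents, so their presence in TQ and their lack of a peak in GL and 93-11 are descriptions. H3K27me3 peaks in the 2 hybrids took part in the merging but not in the choice. With the 3 parents alone merged there were 768 members. Peaks of H3K36me3 were not used by the rule.

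H3K27me3 is trimethylation of lysine 27 on histone H3, which Polycomb repressive complex 2 places on chromatin and which is generally found over genes that are silent or weakly expressed. In plants it often lies over gene bodies, and its marked regions differ between tissues and between varieties. H3K36me3, trimethylation of lysine 36, is placed during transcription and is generally found over the bodies of active genes.

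The study asked how the modification of each parent appears in F1 hybrids, whose nuclei hold 1 genome from each parent. TQ is the indica variety Teqing, GL is Guangluai-4 and 93-11 is Yangdao-6, and GL was crossed with TQ and with 93-11 to give the hybrids. The leaf taken was the second fully expanded one, at the stage when secondary branches differentiate, and the labels give no treatment. Chromatin of each genotype was immunoprecipitated for both marks after leaves of 3 plots had been pooled, which gave 10 libraries, 1 for each genotype and mark. GL × TQ carries the TQ genome and GL × 93-11 does not.

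The H3K27me3 libraries held 36356272 to 43755981 unique mapped reads, with the fewest in TQ, and the H3K36me3 libraries held 37305130 to 49819855. The H3K27me3 lists held 8385 peaks in TQ, the shortest list, to 9639 in GL. Since there is no replicate library, no test was made and no p-value is given. Intervals are 95% intervals of counting error only, and regions are not replicates of a genotype. A region without a peak had no enrichment past the peak caller's threshold, which does not show that it had no tags. All reads were mapped to the japonica variety Nipponbare, so a lack of reads over sequence that a variety does not share with Nipponbare and a lack of the modification cannot be told apart.

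The TQ-alone regions were mostly weak peaks. The score of a peak is 10 times the negative log10 of the p-value of the peak caller, which starts at 50. In TQ the score of the members ran from 50 to 747.5 with a median of 79.6, against a median of 125 over all regions with a TQ peak. Of the members, 493 scored under 100, 193 scored 100 to 200 and 79 scored 200 or more. Their fold enrichment in TQ ran from 1.90 to 8.65 with a median of 2.94, and their tag count from 52 to 2237 with a median of 257. The TQ peaks in them were 391 to 4502 bp long, with a median of 1680 bp. A single member, chr4:35076435-35081413, held 2 TQ peaks, and each of the others held 1.

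Members at the edge of the rule lay within 100 bp of a peak of another parent. The member chr2:26095502-26097464, with 267 TQ tags, stood 32 bp from a GL peak. The member chr4:20535633-20538947, with 861 TQ tags, stood 32 bp from a 93-11 peak, and chr5:3741758-3744154, with 98 TQ tags, stood 56 bp from a GL peak. Just outside the rule, the TQ peak chr5:5651462-5655049 shared 1 bp with 93-11, chr1:8194086-8197372 shared 2 bp with GL, and chr12:57280-58209 shared 101 bp with GL. These had 647, 591 and 118 tags. Of 768 TQ peaks that shared no base with a GL or 93-11 peak, merging left out 2.

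Fewer than 1 in 2 of the TQ-alone regions had a peak in the hybrid that carries the TQ genome, and fewer still in the other hybrid. A GL × TQ peak lay in 315 of the 765 members, or 41.2% (37.7 to 44.7%), against a background of 62.9% over all merged regions and 83.4% over all regions with a TQ peak. A GL × 93-11 peak lay in 80 members, or 10.5% (8.48 to 12.8%), against 61.2% and 76.8%. The gap between the hybrids was 30.7 percentage points. In the study's qPCR check of the H3K27me3 immunoprecipitation, enrichment was lowest in GL × 93-11 among all genotypes and higher in GL × TQ. Whether this bears on the gap was not tested. By pattern, 257 members had a peak in GL × TQ only, 58 in both hybrids, 22 in GL × 93-11 only and 428 in neither. Over the 8350 regions with a TQ peak these counts were 968, 5992, 418 and 972. Over all 13647 merged regions they were 1719, 6867, 1486 and 3575. Of the 1742 regions that only 93-11 carried among the parents, 27.5% had a peak in GL × 93-11 and 19.0% in GL × TQ. At a score of 200 or more in the parent the share in its own hybrid was 65.8% (54.8 to 75.3%) for the members. It was 60.8% (53.3 to 67.8%) for regions of 93-11 alone. At 300 or more the shares were 66.7% (50.3 to 79.8%) and 78.5% (68.2 to 86.1%). The intervals overlap in both classes, so the order of these sets is not resolved by the counts.

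The share found in GL × TQ was larger among the stronger TQ peaks, and the share found in GL × 93-11 was not. A GL × TQ peak lay in 33.9% of members with a TQ score under 100, in 49.7% at 100 to 200, in 65.1% (28 of 43) at 200 to 300 and in 66.7% (24 of 36) at 300 or more. In GL × 93-11 the shares were 11.2%, 10.9%, 4.65% (2 of 43) and 5.56% (2 of 36). Over all regions with a TQ peak both hybrids had more peaks in the higher classes, with 67.1%, 90.6%, 96.1% and 97.3% in GL × TQ and 58.8%, 84.4%, 91.5% and 92.7% in GL × 93-11. Members with a GL × TQ peak had a median TQ score of 94.0 and a median of 276 tags, and those without one had 72.6 and 229 tags.

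**Figure D1:**
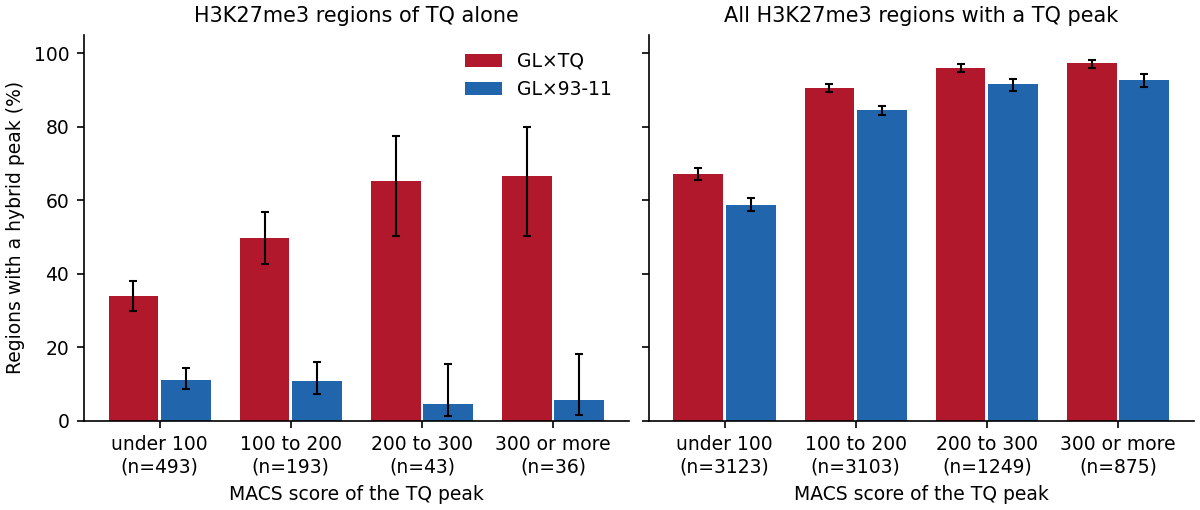
Percent of regions with an H3K27me3 peak in GL × TQ (red) and GL × 93-11 (blue) by score of the TQ peak, for TQ-alone regions (left) and all regions with a TQ peak (right). Bars are shares of the n regions given under each class, and lines are 95% Wilson intervals. Among the members the red bars climb from 33.9% to 66.7%, while the blue bars stay between 4.65% and 11.2%.

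The 10 members with the highest TQ score spanned 8 chromosomes, and 7 of them had a GL × TQ peak. The highest score, 747.5, belonged to chr4:30337271-30339501, with 794 tags (95% Poisson interval 740 to 851) in TQ and no peak in either hybrid. The nearest peaks of GL and 93-11 were 28429 and 30849 bp away. On chromosome 2, chr2:18249916-18251971 had 692 tags in TQ and 423 in GL × TQ, with no peak in GL × 93-11. This is a region with peaks in TQ and its hybrid, and no GL or 93-11 peak within 16 kb of it.

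Several of the strongest members lay on chromosome 12 and chromosome 11. The member chr12:17658303-17659726 had 280 tags in TQ and 216 in GL × TQ, and chr12:17173433-17175469 had 547 and 382. The member chr11:19353919-19355445 had 342 tags in TQ and 198 in GL × TQ. None of the 3 had a GL × 93-11 peak. The nearest GL or 93-11 peak was over 98 kb from chr12:17173433-17175469 and within 2 kb of chr12:17658303-17659726, so strong members occurred both far from and close to modified chromatin of the other parents.

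Other strong members differed in H3K36me3 and in hybrid tags. The member chr7:15625357-15627368 had 588 tags in TQ and 368 in GL × TQ, and an H3K36me3 peak of each of the 5 genotypes overlapped it. The member chr9:12091861-12094902 had 1081 tags in TQ and 1390 in GL × TQ, the only one of the 7 with more tags in the hybrid. These counts are not divided by library total or peak length. The member chr10:9401782-9404128 had 896 tags in TQ and no hybrid peak, like chr4:30337271-30339501.

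Strong TQ peaks that GL × TQ lacked were not confined to a single chromosome. Among the 79 members with a score of 200 or more, 27 had no GL × TQ peak, and 26 of these had none in GL × 93-11 either. After chr4:30337271-30339501, chr4:35076435-35081413 and chr10:9401782-9404128, the next by score were chr10:4360031-4362577, with 709 tags in TQ and a score of 390, and chr10:15788185-15791169, with 974 tags and a score of 383. Neither had a peak in a hybrid, and the nearest peaks of the other parents were 9366 and 10654 bp away.

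The pattern opposite to the one of the parents, a peak in GL × 93-11 and none in GL × TQ, was seen in 22 of 765 members. Over all 8350 regions with a TQ peak it was seen in 418, so it is not particular to the members. The strongest of these members was chr4:35076435-35081413, with 1154 tags in TQ and 1430 in GL × 93-11. The next, chr3:6933077-6936087, had 590 tags in TQ and 803 in GL × 93-11. The other named ones were chr4:30860151-30862446 (402 and 416 tags), chr5:20526099-20528776 (508 and 481) and chr4:4567298-4569408 (310 and 566). Of these 5, 3 lay on chromosome 4, and GL and 93-11 peaks came within 100 bp of chr4:30860151-30862446 only.

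Where both had a peak, the level in GL × TQ was lower than in TQ at most members, after division by the library total. The level is the number of tags per kb of peak per 1000000 unique mapped reads. In TQ the level of the members ran from 2.50 to 15.0 with a median of 4.02. It ran from 2.14 to 12.4 with a median of 3.41 over the 315 members with a GL × TQ peak, and had a median of 3.86 over the 80 with a GL × 93-11 peak. The median ratio of GL × TQ to TQ was 0.857 (0.832 to 0.876), and 287 of 315 ratios (91.1%) were below 1, against a background of 84.4% over all regions with both peaks. None of the 315 passed a fold of 2 in either direction, against a background of 0% below and 0.0431% above. Members without a GL × TQ peak have no ratio and could not be counted. A member at the median TQ level of 4.02 that fell past a fold of 2 would lie below 2.14, the lowest GL × TQ level seen. The lack of such falls was thus largely fixed by the need for both peaks. With tags in peaks as the library total the median was 0.934 (0.907 to 0.954), and with no total it was 1.00 (0.973 to 1.02).

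Among members with both peaks the median ratio was lowest for the strongest TQ peaks. At a TQ score of 200 or more it was 0.671 (0.635 to 0.715, 52 members), against 0.900 at scores under 100 (167 members) and 0.794 at 100 to 200 (96 members). In the same class of 200 or more it was 0.738 in regions of TQ and 93-11 but not GL, 0.866 in regions of TQ and GL but not 93-11, and 0.879 in regions of all 3 parents. The members thus stood at 0.763 of the value for regions of all 3 parents, a figure that no library total changes. By the fold enrichment of the peak caller in place of tags the medians of this class were 0.915 for members and 0.969 for regions of all 3 parents. Both the rule and the score classes used the TQ peak, so the TQ side of the ratio was itself part of the choice.

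**Figure D2:**
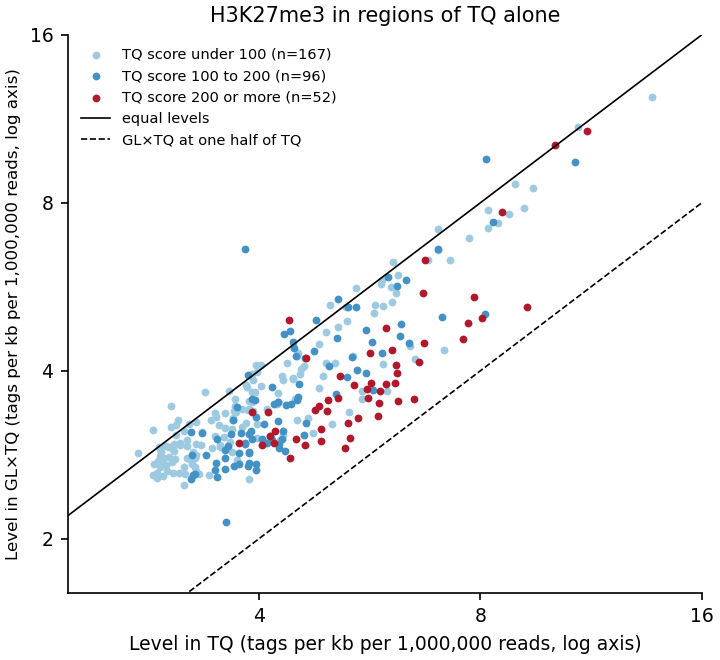
H3K27me3 level in TQ (horizontal) and GL × TQ (vertical) for the 315 TQ-alone regions with a GL × TQ peak, in tags per kb of peak per 1000000 unique mapped reads on log axes. Colours give the class of the TQ score, the solid line equal levels and the dashed line a ratio of 0.5. Most red points (score 200 or more, median ratio 0.671) lie between the lines.

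The order of the members by level was largely shared by TQ and its hybrid. Across the 315 members Spearman's rho between the levels was 0.824, and between the fold enrichments it was 0.751. These are correlations across regions within a single pair of libraries, and the tags of a region depend in both on how well it can be mapped. The summits of the TQ and GL × TQ peaks were a median of 59 bp apart, and 186 of 315 (59.0%) lay within 100 bp, against 61.0% over all regions with both peaks.

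Named regions show how far single members departed from the median ratio. At a TQ score of 200 or more the lowest ratio was 0.549 (exact interval 0.458 to 0.658) at chr12:17658303-17659726. It was followed by 0.555 at chr11:21346792-21349026 (425 tags in TQ, 112 in GL × TQ over a shorter peak), 0.561 at chr2:18249916-18251971, 0.570 at chr12:16866403-16867888 (283 and 153 tags) and 0.572 at chr11:19353919-19355445. The intervals of these 5 overlap, so their order is not resolved by the counts. All 5 intervals lie below 1, but the 5 were picked as the lowest ratios of 52 members. None of the 5 had a GL × 93-11 peak, and 49 of the 52 had none.

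The highest ratio of the same class was 1.12 (0.975 to 1.30) at chr4:17742416-17745279, where TQ had 294 tags, GL × TQ 601 over a longer peak and GL × 93-11 390. Next came chr12:18032375-18036502 with 1.01 (1269 tags in TQ and 1781 in GL × TQ), chr9:12091861-12094902 with 0.962, chr12:16406603-16409001 with 0.939 (587 and 643 tags, and 639 in GL × 93-11) and chr10:21850217-21852512 with 0.909 (382 and 411 tags). The intervals of all 5 include 1, and the 5 were picked as the highest ratios. Of these 5, 2 also had a GL × 93-11 peak.

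At the 58 members with a peak in both hybrids the levels of the hybrids were close. The median ratio of GL × TQ to GL × 93-11 was 0.963 (0.910 to 1.01), and GL × TQ was higher at 22 of them (37.9%), against a background of 32.9% over all regions with peaks in both. The ratios ran from 0.691 to 1.97. Over all regions with peaks in both hybrids the median ratio was 0.951, so the members did not stand apart from the other regions beyond the interval.

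Regions of GL alone also had lower levels in the hybrids than in their parent. Regions of 93-11 alone over all scores had a median ratio of 0.989 (0.973 to 1.01) in GL × 93-11. This was near 1, but below the 1.07 (1.065 to 1.075) of regions of all 3 parents for the same pair of libraries. Where the peak of the parent scored at least 200, regions of GL alone had a median ratio to GL of 0.659 in GL × TQ (113 regions) and 0.683 in GL × 93-11 (142 regions), and regions of 93-11 alone had a ratio to 93-11 of 0.825 in GL × 93-11 (104 regions). Regions of all 3 parents had 1.02 for GL × 93-11 to 93-11 in this class. Without scaling to regions of all 3 parents, a ratio as low as that of the members was thus also found in regions of GL alone. No ratio of a hybrid to GL was computed for regions of all 3 parents. The lowering in GL alone and in the members can therefore not be compared apart from the library totals.

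The members varied widely in their distance from modified chromatin of the other parents. The gap to the nearest GL or 93-11 H3K27me3 peak ran from 32 to 155437 bp with a median of 6777 bp. It was under 1 kb for 87 members, 1 to 5 kb for 227, 5 to 20 kb for 293, 20 to 50 kb for 115 and over 50 kb for 43. The share with a GL × TQ peak was 29.9% in the nearest class and 55.8% (41.1 to 69.6%) in the farthest, with 44.5%, 36.9% and 48.7% between them. The share with a GL × 93-11 peak was 12.6%, 12.3%, 10.2%, 8.70% and 2.33% in the same order. The hybrids thus stood farthest apart at members over 50 kb from any peak of the other parents, although the classes between did not follow a steady order in GL × TQ.

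**Figure D3:**
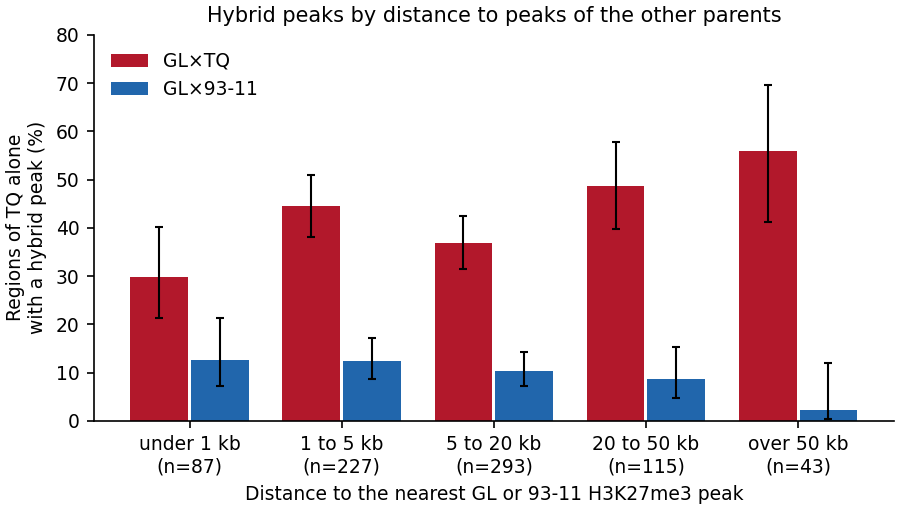
Percent of TQ-alone regions with a peak in GL × TQ (red) and GL × 93-11 (blue) by distance to the nearest GL or 93-11 H3K27me3 peak. Bars are shares of the n members under each class, with 95% Wilson intervals as lines. The gap between the hybrids is widest over 50 kb, at 55.8% and 2.33%.

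Along the genome the members were unevenly spread, and chromosomes 11 and 12 held 191 of the 765. As a share of the regions with a TQ peak, members made up 15.9% (13.3 to 19.0%, 101 of 635) on chromosome 12 and 12.8% (90 of 702) on chromosome 11. On chromosome 1 they made up 5.28% (55 of 1042) and on chromosome 3 5.47%. Per Mb there were 3.68 members on chromosome 12 and 1.26 on chromosome 3. Regions of 93-11 alone made up 16.9 to 22.4% of the regions with a 93-11 peak by chromosome and those of GL alone 19.0 to 25.9%, narrower ranges in proportion.

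The hybrids differed in where the members appeared. On chromosome 12, 48 of 101 members had a GL × TQ peak and 2 had a GL × 93-11 peak. On chromosome 4 these counts were 24 and 18 of 68, and on chromosome 5 they were 25 and 12 of 51. Chromosomes 4 and 5 together held 30 of the 80 members with a GL × 93-11 peak, a share of 25.2% of their members against 7.74% on the other chromosomes. They were singled out because their GL × 93-11 shares were the largest, so this is a description. Over all regions with a TQ peak the GL × 93-11 share was 78.6% on chromosomes 4 and 5 and 76.4% on the others. The share of members with a GL × TQ peak was 41.2% in both sets of chromosomes.

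**Figure D4:**
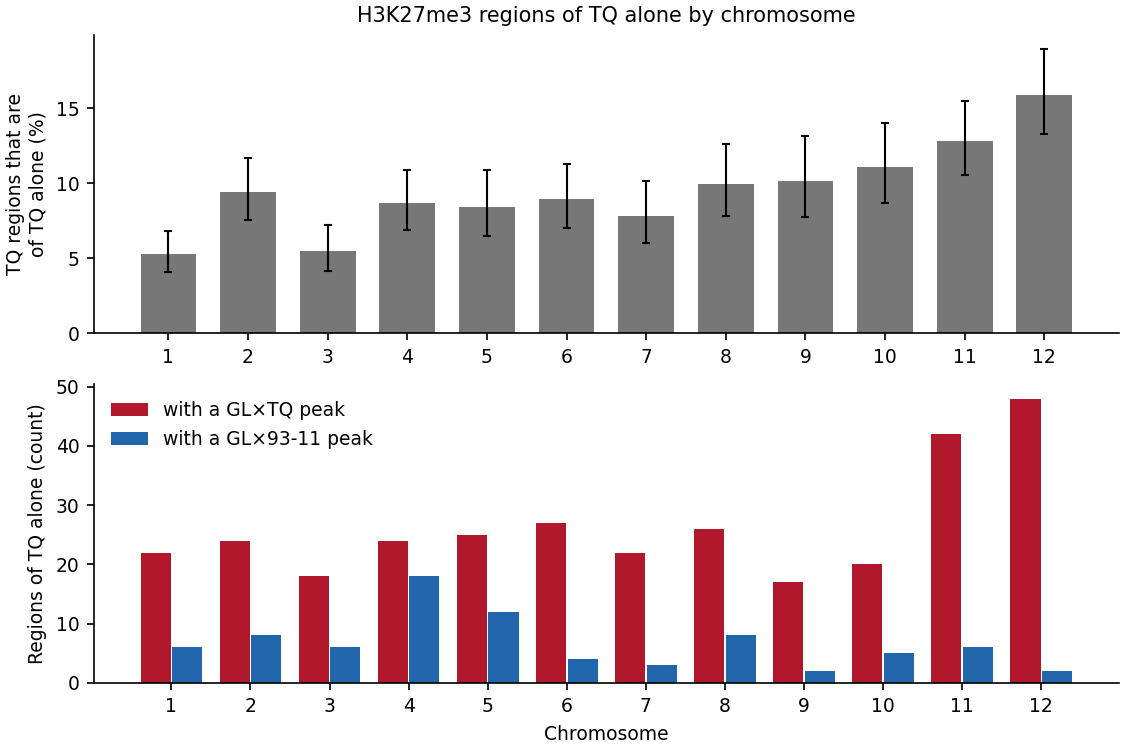
Above, TQ-alone regions as a percent of all regions with a TQ peak on each chromosome, with 95% Wilson intervals. Below, the number of TQ-alone regions with a peak in GL × TQ (red) and in GL × 93-11 (blue). Chromosome 12 has the largest share (15.9%) and counts of 48 and 2, and chromosome 4 counts of 24 and 18.

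The members were a larger share of TQ regions where active chromatin was sparse. In 1 Mb windows with under 10 H3K36me3 peaks of TQ, 14.1% of the TQ regions were members, and the share was 12.02% at 10 to 20 peaks, 9.25% at 20 to 30, 7.76% at 30 to 40 and 6.02% at 40 or more. The share of members with a GL × TQ peak had no such order, at 46.4%, 42.0%, 36.8%, 43.4% and 40.4%.

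Members often stood beside each other. Of the 765, 253 (33.1%, 29.8 to 36.5%) had a member as the previous or next TQ region, whereas 15.3% of the other TQ regions did. The same shares were 40.4% and 32.9% for regions of 93-11 alone and 42.0% and 37.0% for regions of GL alone, which are more numerous. The share of members beside a member was 20.6% (16.2 to 25.8%) when only the 272 members with TQ scores of 100 or more were counted, which are fewer among the same TQ regions, and 28.8% without chromosome 12. Members beside a member had a GL × 93-11 peak in 4.35% (2.44 to 7.62%) of cases and the others in 13.5% (10.8 to 16.7%), while a GL × TQ peak was found in 37.2% and 43.2%.

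When members at most 50 kb apart were joined, 501 stood alone, 148 were in pairs and 116 were in 32 chains of 3 or more. In all, 34.5% (31.2 to 37.9%) were in groups of 2 or more. This share was 46.3% for regions of 93-11 alone, 49.6% for GL alone and 81.1% for all 3 parents, which are more numerous. Chains are thus not particular to the members. In the chains of 3 or more 42.2% of the members had a GL × TQ peak and 3.45% a GL × 93-11 peak. For members standing alone these shares were 43.1% and 12.97%. Of the 32 chains, 13 with 43 members had no GL or 93-11 H3K27me3 peak anywhere in their span. In these 13, 19 members had a GL × TQ peak and 0 a GL × 93-11 peak. A single chain of the 32 had a GL × TQ peak in every member, and 4 had none in any.

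The largest chains differed from each other in what GL × TQ showed. The chain chr8:2818770-2893210 held 5 members and no GL, 93-11 or GL × 93-11 peak of either mark in its span. The members had 444, 423, 879, 365 and 144 tags in TQ, from left to right. GL × TQ had 299, 257, 614 and 225 tags at the first 4 and no peak at the fifth, with ratios of 0.669, 0.611, 0.692 and 0.673. TQ and GL × TQ each also had 1 H3K36me3 peak in the span, of 576 and 229 tags. Both marks of TQ in this span were thus seen in the hybrid with the TQ genome and in no other genotype.

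The chain chr12:21836591-21907528 showed the other pattern. Its 5 members had 654, 111, 348, 546 and 241 tags in TQ, and none had a peak in a hybrid. No genotype had an H3K36me3 peak in the span, and the nearest H3K27me3 peak of GL was 46488 bp away. GL × 93-11 had 1 H3K27me3 peak of 196 tags in the span, between members. GL × TQ had none in the span, but 1 of 270 tags ended 0.868 kb before the first member. The score of that GL × TQ peak was 144, above each TQ score of the chain. The TQ scores were 54.1 to 114, against 130 to 572 in the chain on chromosome 8, so the chains differ in peak strength as well as in the hybrid.

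**Figure D5:**
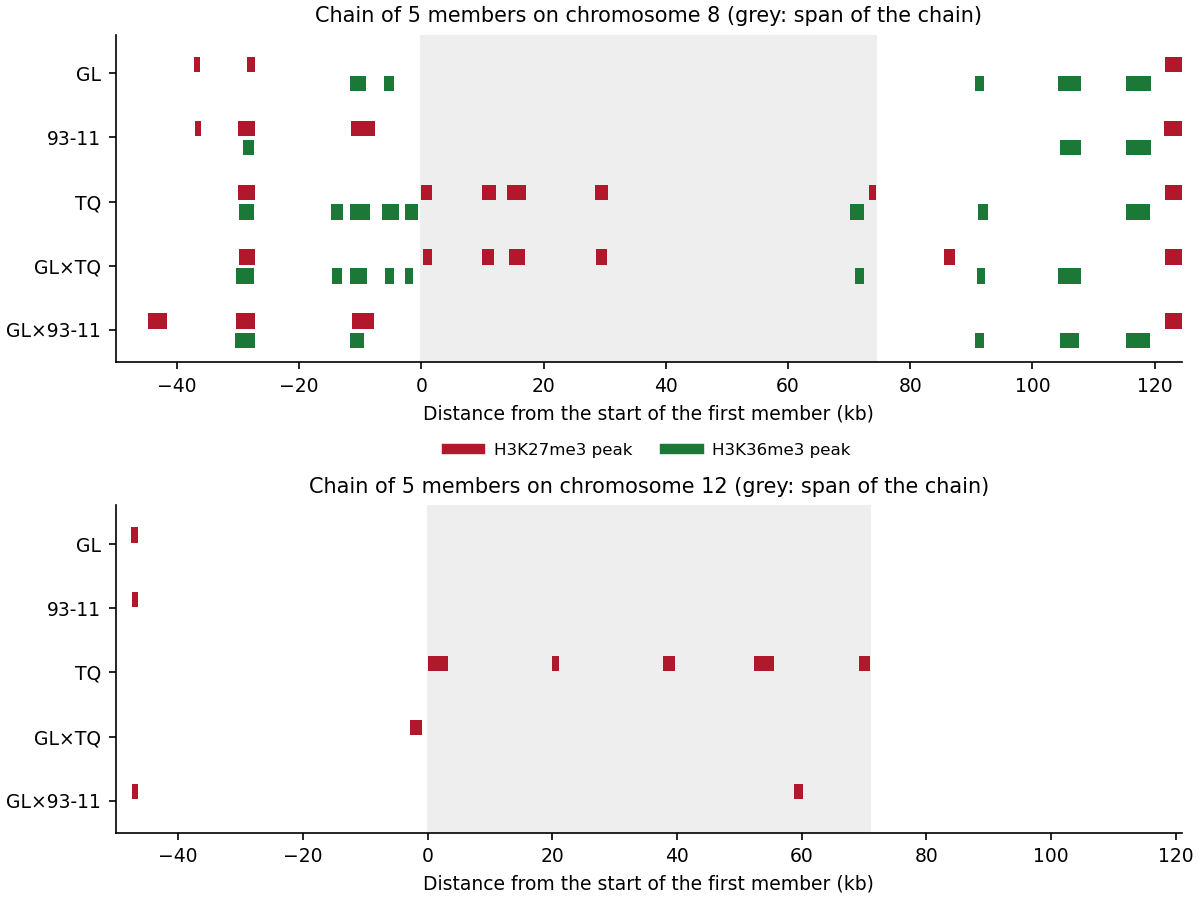
Peaks of H3K27me3 (red) and H3K36me3 (green) of the 5 genotypes in and within 50 kb of the chains on chromosome 8 (above) and chromosome 12 (below), by distance in kb from the start of the first member, with the span of the chain in grey. Bar width is peak length, and height has no meaning. On chromosome 8 GL × TQ has a peak at 4 of 5 TQ peaks. On chromosome 12 it has a peak at 0 of 5, and 1 just before the span.

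The 3 other chains lay among peaks of GL and 93-11. The largest, chr9:12016452-12138585, held 8 members with 3020 TQ tags in all, and only chr9:12091861-12094902 had a GL × TQ peak. GL had 6 and 93-11 had 5 H3K27me3 peaks between its members. The chain chr8:19530618-19654880 held 6 members, of which 3 had a GL × TQ peak and 2 a GL × 93-11 peak. The chain chr12:2800562-2860242 held 5 members, of which 2 had a GL × TQ peak, at ratios of 0.982 and 0.988, and 0 a GL × 93-11 peak.

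On a wider scale, 744 windows of 500 kb held a TQ region, and 332 of these (44.6%) held no member. In contrast, 40 windows with 4 or more held 210 members, or 27.5% of all. No such count is given for the other classes of region, so this spread is not shown to be particular to the members. The window chr6:7000001-7500000 held 9 members among 16 TQ regions, and 6 of the 9 had a GL × TQ peak. The window chr10:9000001-9500000 held 9 of 20, with 3 in GL × TQ, and chr9:12000001-12500000 held 9 of 28, with 1. None of the members in these 3 windows had a GL × 93-11 peak.

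Few members carried H3K36me3, and their share in TQ was close to that in the parents without the H3K27me3 peak. An H3K36me3 peak overlapped 47 members in TQ (6.14%, 4.65 to 8.07%), against a background of 7.07% over all merged regions. The counts were 46 in GL (6.01%, background 8.49%), 43 in 93-11 (5.62%, background 6.33%), 40 in GL × TQ (5.23%, background 6.93%) and 38 in GL × 93-11 (4.97%, background 7.89%). In all, 80 members overlapped an H3K36me3 peak of at least 1 genotype. The intervals of the 5 genotypes overlap.

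An H3K36me3 peak in place of the H3K27me3 peak was rare. GL or 93-11 had an H3K36me3 peak without one in TQ at 30 members (3.92%, 2.76 to 5.54%), and in regions of all 3 parents this share was 3.37% (2.92 to 3.89%). Both GL and 93-11 had one without TQ at 3 members. The reverse, an H3K36me3 peak of TQ alone among the parents, was seen at 14 members (1.83%, 1.09 to 3.05%). The share was 0.599% (0.425 to 0.845%) in regions of all 3 parents and 0.850% over all regions with a TQ peak. It was 1.28% (0.788 to 2.07%) in regions of TQ and GL and 0.905% (0.477 to 1.71%) in regions of TQ and 93-11. The intervals of both these classes overlap that of the members, so the counts do not resolve whether the share is particular to the members.

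The named members of the former kind did not share a hybrid pattern. At chr7:13654749-13656527, with 375 H3K27me3 tags in TQ and 206 in GL × TQ, GL and GL × 93-11 had H3K36me3. At chr10:3897150-3898738, with 262 tags in TQ and no hybrid H3K27me3 peak, 93-11 and GL × 93-11 had H3K36me3. At chr1:39915238-39918702, with 1396 tags in TQ and no hybrid H3K27me3 peak, GL, 93-11 and both hybrids had H3K36me3.

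This last member is the only named one at which every genotype except TQ had H3K36me3 and TQ alone had H3K27me3. At chr9:5087593-5091635 TQ had 1058 H3K27me3 tags, GL × TQ 1099 and GL × 93-11 1258, and GL alone had H3K36me3. The H3K27me3 levels there were 8.32, 7.39 and 7.25 in the same order of genotypes. At chr3:6933077-6936087, named above for its GL × 93-11 peak, 93-11 and GL × TQ had H3K36me3.

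Regions of H3K36me3 that were alone to TQ lay near 50 of the members. Of 9812 merged H3K36me3 regions with a TQ peak, 728 (7.42%) had no GL or 93-11 peak. One lay within 10 kb of 6.54% (4.99 to 8.51%) of the members, against 3.95% (3.46 to 4.51%) of regions of all 3 parents, 6.15% of regions of TQ and GL and 3.92% of regions of TQ and 93-11. Among members near any H3K36me3 region of TQ, 16.4% were near one of TQ alone, against 8.37% in regions of all 3 parents. The share was close to that of regions of TQ and GL, so it is not particular to the members.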

How the data were processed

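The 10 peak lists were grouped by the strain and antibody labels. The authors filtered reads, mapped them with SOAP2 (up to 2 mismatches) to the Nipponbare genome, and called peaks per library with MACS 1.4.0 at a p-value of 1e-05. The sources used here give neither the version of that genome nor an input control for this step. The deposited lists give whole tag counts, a score (10 times the negative log10 of the p-value) and a fold enrichment ratio. The score column had lost its heading and was identified by its place and its minimum of about 50. As library totals, unique mapped reads were taken from the study's supplementary text.

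Peaks sharing 1 bp were merged, coordinates are 1-based as deposited, and a level is tags per kb of peak per 1000000 reads, summed over a library's peaks in a region. Shares have Wilson intervals, tags exact Poisson intervals, ratios of a region exact conditional binomial intervals, and medians order-statistic intervals. Intervals were computed in scipy 1.17.1, tables in pandas 2.3.3 and numpy 2.4.6 under Python 3.11.15, and plots in matplotlib 3.10.9. Merging and the choice of members were tested on simulated lists, made from the TQ list by small shifts of its peaks. Peak calling and the loss of weak peaks at the threshold were not simulated, so the test bears only on how the rule is applied. Tags come from amplified libraries without molecular identifiers, so intervals cover counting error only.

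Members, classes and rules were chosen with earlier results of these data known. Named regions were the 10 highest TQ scores, the 5 highest without a GL × TQ peak, the 5 highest with a GL × 93-11 peak only, the 5 highest and 5 lowest ratios at scores of 200 or more, the 5 largest chains, the 5 highest scores with H3K36me3 in GL or 93-11 and not TQ, and 3 regions on each side of the rule. The 500 kb windows named are those with the most members, chosen after their values were seen. Genes and sequences at the regions were not analysed here, since no genome or annotation of the build was used. Alternatives are given in the closing section.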

Additional observations from a re-analysis of the deposited data

How the results depend on the processing

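Without replicates or input, library quality, depth and genotype cannot be told apart. Weak peaks near the score threshold dominate the members. No paired analysis was possible because each genotype and mark has 1 library, so no replicate could be left out either. With TQ peaks of score 100 or more only, there were 272 members, 54.4% had a GL × TQ peak, the gap between hybrids was 45.2 points, the median ratio was 0.760 and 20.6% stood beside a member. With no GL or 93-11 peak within 5 kb, there were 451 members. With the lists brought to equal length, 13.97% had a GL × 93-11 peak, the gap was 26.0 points and the ratio 0.876. The ratio was 0.934 with tags in peaks as the library total, 1.00 with no total and 0.946 with fold enrichment in place of tags. The last setting and the one without chromosome 12, in which 28.8% stood beside a member, were chosen after seeing the data. Under the other settings (peaks up to 500 or 1000 bp apart merged, the 3 parents alone merged, 50% of the TQ peak as the overlap, a score of 100 or more in every list, levels per kb of merged region) each result moved by less than its interval or, for counts, by less than 1.5 times. The shares with H3K36me3 of TQ and GL stayed within 5.54 to 7.35% and 4.797 to 6.62%.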
